A study of Rattus norvegicus with 16 samples.

Results

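Genes of striated muscle were measured in the stomach and the middle part of the intestine of suckling Wistar rats (Wistar Han in the study's methods). The genes were chosen by name, as 10 of the 26115 names on the array: 5 forms of fast fibres (Tnni2, Tnnt3, Tnnc2, Atp2a1 and Casq1), 2 of slow fibres (Tnni1 and Tnnt1) and 3 that are common to fibre types or best known from the heart (Acta1, Actc1 and Ckm). They were picked after their ratios on the stomach arrays had been seen, so what they show in stomach, and between the tissues, is given as a description with no test. Rats received obestatin, a peptide cut from the ghrelin precursor, by gavage (250 nmol/kg BW, 2 doses daily, days 14 to 21 after birth; group OH), or saline on the same schedule (group C), and were breast-fed throughout. All were killed on day 21. There were 16 arrays, 4 for each treatment and tissue, each from 1 rat, and the litters of these rats were not given, so that p-values measure the spread between rats that may be littermates.

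Striated muscle contracts when calcium released from the sarcoplasmic reticulum binds troponin on the actin filament. Troponin has a calcium-binding subunit (C), an inhibitory subunit (I) and a subunit that holds the complex to tropomyosin (T), and fast and slow fibres use products of different genes for them. The wall of the stomach and intestine is built of smooth muscle, which has no troponin-based switch, while the rat oesophagus, which opens into the stomach, has a coat of striated muscle.

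Each array carried rat tissue RNA in Cy5 and a pool of RNA of all rats of the study in Cy3, and each value is the log2 ratio of the processed Cy5 to Cy3 signals. A ratio sets a gene against its own level in the pool, so ratios of different genes are not amounts of RNA relative to each other. The 10 genes had 12 probes, 2 each for Casq1 and Tnnt1, of which the brighter stands for the gene. Of the 10 genes, 7 exceeded background clearly in Cy5 on every one of the 16 arrays, and 9 passed the filter on dim probes (well above background throughout at least 1 group of 4 arrays), which kept 21174 of 30367 probes. Atp2a1 did not pass it.

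Each gene was read by probes of 60 bases. The pair below is shown because both probes lie in the same stretch of the troponin T genes, Tnnt3 of fast and Tnnt1 of slow fibres. Capitals mark the 41 of 60 bases, 68.3%, that are equal at the same place, and coordinates are those of the array design, on rn4.
Tnnt3, chr1:202758664-202758723, plus strand: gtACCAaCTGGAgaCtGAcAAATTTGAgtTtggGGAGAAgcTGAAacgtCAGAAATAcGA
Tnnt1, chr1:68043171-68043230, plus strand: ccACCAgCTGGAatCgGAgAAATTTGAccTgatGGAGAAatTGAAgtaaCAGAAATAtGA
This Tnnt1 probe is the dimmer of 2. The fast troponin C probe is the member probe that shares a run with another troponin gene, and the partner is Tnnc1, the troponin C of slow fibres and heart. Capitals mark the shared run of 17 bases.
Tnnc2, chr3:155807460-155807519, minus strand: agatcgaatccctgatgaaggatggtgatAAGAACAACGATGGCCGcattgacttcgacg
Tnnc1, chr16:6642153-6642212, plus strand: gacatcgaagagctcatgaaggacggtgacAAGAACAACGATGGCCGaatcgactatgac
Of the 12 probes, 6 shared no run of 14 bases with the probe of any other gene, and the longest run shared by any of them was 17 bases.

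Promoters of 9 of the 10 genes were matched by symbol to RefSeq sequences on GRCr8, and Tnnt3 was not matched. The E-box, CANNTG, which reads the same on both strands and is the letter pattern bound by MyoD and its relatives, was found in the 250 bases upstream of the start in 8 of the 9, Actc1 being without it, and in 65.5% of all 33469 promoters. A CArG box, the pattern bound by serum response factor, was found on either strand in Acta1 alone, 94 bases upstream of the start, and in 1.5% of all promoters. No member held a MEF2 site, found in 2.96% of all. The patterns do not overlap one another in the sequences printed. The promoters below are those of skeletal actin, muscle creatine kinase and the slow troponin I, shown for genes of the common and slow classes that were high on the same arrays, with E-boxes and the CArG box in capitals.
Acta1, chr19:68784195-68784444, minus strand: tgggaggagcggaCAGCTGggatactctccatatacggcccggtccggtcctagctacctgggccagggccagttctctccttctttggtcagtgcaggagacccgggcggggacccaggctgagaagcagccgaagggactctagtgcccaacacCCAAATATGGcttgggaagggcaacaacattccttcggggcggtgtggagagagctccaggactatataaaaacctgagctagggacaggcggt
Ckm, chr1:88189211-88189460, plus strand: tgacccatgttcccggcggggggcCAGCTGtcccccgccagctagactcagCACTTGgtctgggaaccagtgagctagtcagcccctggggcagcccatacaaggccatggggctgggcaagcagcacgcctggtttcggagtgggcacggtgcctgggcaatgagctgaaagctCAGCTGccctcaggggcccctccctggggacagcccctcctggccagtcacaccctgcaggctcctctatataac
Tnni1, chr13:49781279-49781528, plus strand: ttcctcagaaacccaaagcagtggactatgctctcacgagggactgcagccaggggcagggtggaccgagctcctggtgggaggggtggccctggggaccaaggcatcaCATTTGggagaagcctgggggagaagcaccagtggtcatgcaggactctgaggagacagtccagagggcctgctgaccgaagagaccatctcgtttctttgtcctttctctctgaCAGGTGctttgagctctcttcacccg
Acta1 has 1 E-box, Ckm has 3 and Tnni1 has 2 in this window.

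The tissue labels and the markers went together. A list of 8 genes of the oxyntic and surface mucosa of the stomach had a mean log2 ratio of 2.04 to 3.19 on the stomach arrays and -4.23 to -3.33 on those of middle intestine, and a list of 9 enterocyte genes lay at -3.49 to -3.01 in stomach, against -0.49 to 1.24 in middle intestine. One array stood apart within its group. On C stomach replicate 2 every one of the 10 striated muscle genes was at its lowest in the group, and its list of 9 genes of stratified squamous epithelium, the lining of forestomach and oesophagus, had a mean of 0.40 against 1.39, 2.40 and 1.78 on replicates 1, 3 and 4. Its oxyntic list, at 2.76, was just under the 2.80 to 3.19 of the other C stomach arrays. Differences from the C stomach mean are therefore given with and without this array. The arrays of each group were on a slide of their own, and C and OH slides were scanned on different days. The median raw signal of the Cy3 pool also split by treatment, at 188 to 195 on the C arrays and 341 to 399 on the OH arrays, while that of Cy5 overlapped (178 to 293 and 163 to 328). Slide, scan day and the level of the Cy3 channel thus cannot be told apart from the treatment in any comparison of OH with C. Nor can slide be told apart from tissue in any comparison of stomach with middle intestine.

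In C stomach, the striated muscle genes were high on 3 arrays and low on the fourth. Tnni2, the inhibitory troponin subunit of fast fibres, had log2 ratios of 4.27, -0.38, 3.84 and 4.54 on replicates 1 to 4. Tnnt3, which anchors fast troponin to tropomyosin, had 4.23, -2.66, 4.32 and 4.37, with replicate 2 not well above background. Replicate 2 was below the next lowest array by 4.21 for Tnni2, and no gap is given for Tnnt3. Tnnc2, the calcium sensor of fast fibres, had 3.52, -1.57, 2.89 and 3.90. Atp2a1, the calcium pump that refills the sarcoplasmic reticulum, had 3.11, -1.36, 3.19 and 3.12, with replicate 2 not well above background. Casq1, which stores calcium inside that reticulum, had 2.70, -3.32, 1.65 and 3.32. Thus all 5 fast genes split the group in the same way, 3 arrays against 1. The dimmer probe of Casq1 did so as well, with 2.52, -2.64, 1.82 and 3.00 (not well above background on replicate 2).

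The slow genes did so too. Tnni1, the slow troponin I, had log2 ratios of 2.67, -0.999, 2.37 and 2.89 in C stomach, and Tnnt1, the slow troponin T, had 1.97, -1.27, 2.15 and 3.38. The second probe of Tnnt1, printed above, had 1.63, -2.74, 2.18 and 3.18. The low array was again replicate 2, and for the dimmer Tnnt1 probe it was not well above background. Among the common genes, Acta1, the actin of skeletal muscle thin filaments, had 2.82, -0.89, 2.28 and 2.97. Ckm, which regenerates ATP from phosphocreatine, had 3.26, -1.40, 2.57 and 3.68. Actc1, the actin of heart that is also made by immature skeletal muscle, had 3.01, 0.19, 2.65 and 3.20, with replicate 2 below the next lowest array by 2.45. All 3 classes were low on replicate 2. Of all probes on the array, 25.2% were lowest in C stomach on replicate 2 and 0.879% were so by over 2 on the log2 scale, beside 10 of these 10 genes on both counts (Tnnt3 and Atp2a1 with replicate 2 at background); the genes were chosen on these values, and nothing is read from the counts. In these bulk samples fewer muscle cells and less RNA per muscle cell cannot be told apart.

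**Figure D1:**
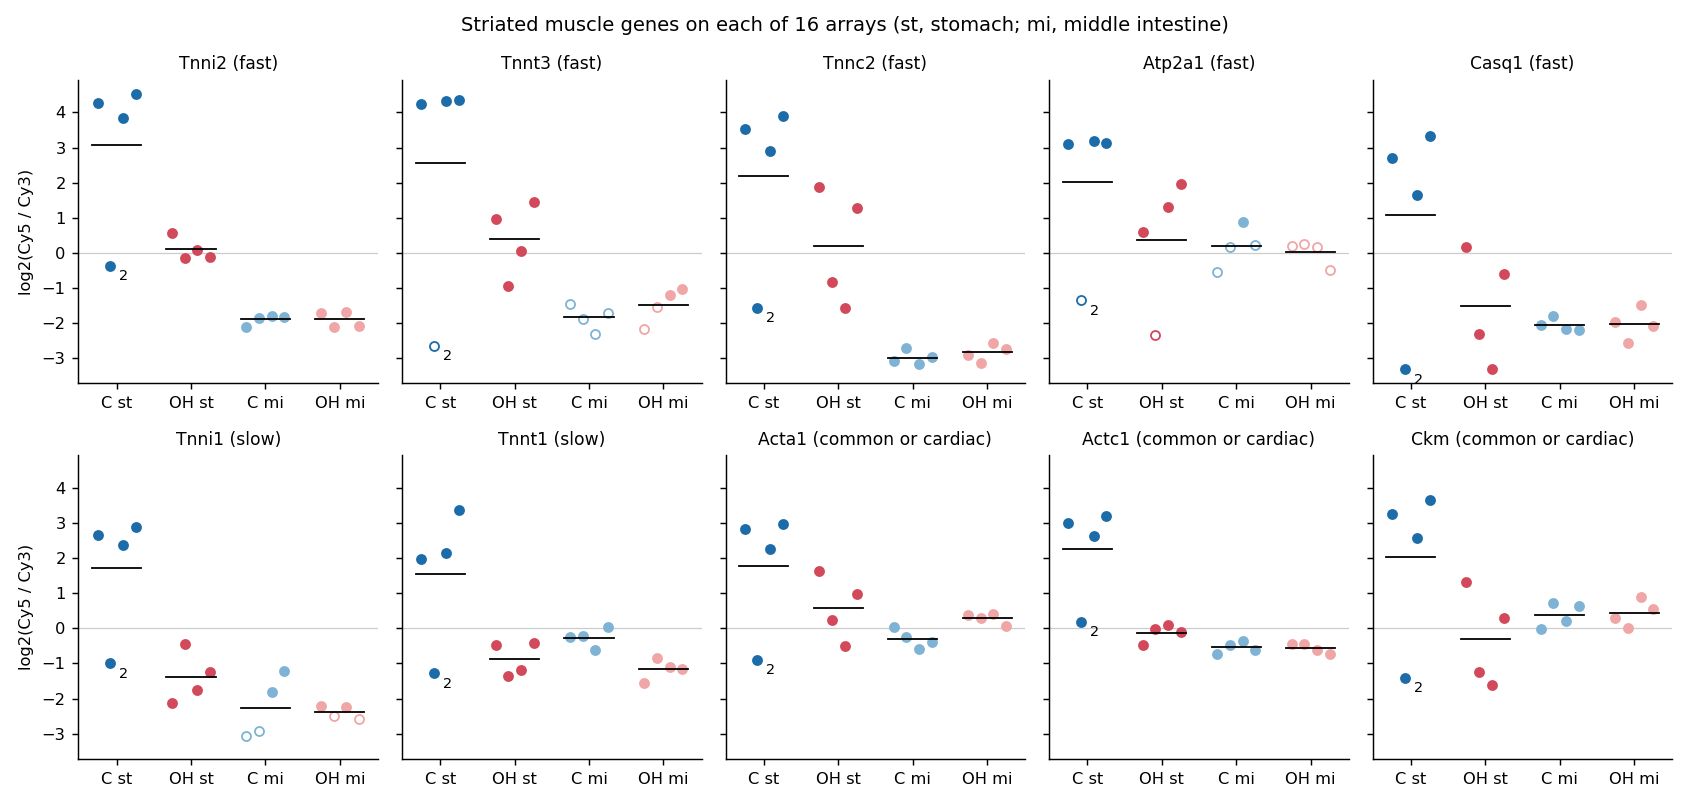
Log2 ratio of Cy5 (tissue) to Cy3 (pool) of each gene on each array, in C and OH stomach (st) and middle intestine (mi), with 4 arrays per group and the group mean as a bar. Open circles were not well above background in Cy5, and the C stomach replicate marked 2 is the lowest of its group in all 10 panels.

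OH stomach lay under those 3 C arrays for every gene. The highest of the 4 OH stomach arrays was below the second lowest C stomach array in 10 of 10 genes, where 11% of all probes were so. Counting replicate 2, only Actc1 did not overlap between the groups, 1 of 10 genes, where 3.51% of all probes tested were lower in OH with no overlap. Nothing is read from these counts either. Relative to the OH arrays, C stomach replicate 2 lay within their range for 6 genes, below it for 3 (Tnni2, Tnnt3 and Acta1) and above it for Actc1.

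Tnni2 had log2 ratios of 0.56, -0.16, 0.08 and -0.12 on OH stomach replicates 1 to 4, a mean of 0.09 ± 0.33 (SD, n = 4) against 3.07 ± 2.32 (SD, n = 4) in C. The difference was -2.97 with all arrays and -4.12 without C stomach replicate 2. Tnnt3 had 0.97, -0.94, 0.04 and 1.44, and its difference was -3.93 without that replicate, and -2.19 with it, its value there being at background. For Atp2a1 the OH values were 0.58, -2.36, 1.29 and 1.95, of which the second was not well above background. The troponin and calcium pump genes of fast fibres were thus low on every OH stomach array relative to 3 of the 4 C arrays.

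For the slow genes, Tnni1 had -2.14, -0.44, -1.76 and -1.26 in OH stomach, and the difference was -3.13 with all arrays and -4.04 without C stomach replicate 2. Tnnt1 had -0.48, -1.37, -1.19 and -0.43, and the difference was -2.43 and, without the replicate, -3.37. Actc1 had -0.47, -0.03, 0.09 and -0.11, with a difference of -2.39 that was -3.08 without the replicate. The OH arrays of these 3 genes lay close together, with ranges of 1.70, 0.94 and 0.56 on the log2 scale. Over all 21174 probes, limma called no probe in stomach at an adjusted p under 0.05 (0% called, 2247 probes with an unadjusted p under 0.05), and 311 (1.47%) without C stomach replicate 2, an array set aside for its low values in muscle genes.

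The common and fast genes Acta1, Ckm, Tnnc2 and Casq1 ranked the OH stomach arrays alike, with 2 arrays high and 2 low. Tnnt3 and Tnnt1 were also higher on replicates 1 and 4 than on 2 and 3, but were highest on replicate 4. Acta1 had log2 ratios of 1.62, 0.23, -0.52 and 0.97, and Ckm had 1.33, -1.26, -1.61 and 0.31. Tnnc2 had 1.88, -0.85, -1.57 and 1.29, and Casq1 had 0.17, -2.31, -3.33 and -0.60. In all 4 genes replicate 1 was highest, then 4, 2 and 3, a range of 2.14 for Acta1, 2.94 for Ckm, 3.45 for Tnnc2 and 3.49 for Casq1. The differences between OH and C stomach were -1.22, -2.33, -1.999 and -2.61 for Acta1, Ckm, Tnnc2 and Casq1, and -2.11, -3.48, -3.25 and -4.07 without C stomach replicate 2.

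A list of 8 smooth muscle genes, among them Acta2, Myh11 and Cnn1, took the same order. Its mean log2 ratio was 0.96, -1.42, -2.71 and 0.12 on OH stomach replicates 1 to 4, all 8 genes being above background on every array. In C stomach the list stood at -2.36, -2.79, -1.52 and -2.14, below the pool on every array. It was lowest on replicate 2, as the striated muscle genes were, by 0.44. The oxyntic list in OH stomach ran the other way, at 2.13, 2.54, 2.78 and 2.04. Of the 10 striated muscle genes, Acta1, Ckm, Tnnc2 and Casq1 ranked the 4 OH stomach arrays as the smooth muscle list did, and the other 6 did not; the part of smooth muscle in these values was not tested.

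**Figure D2:**
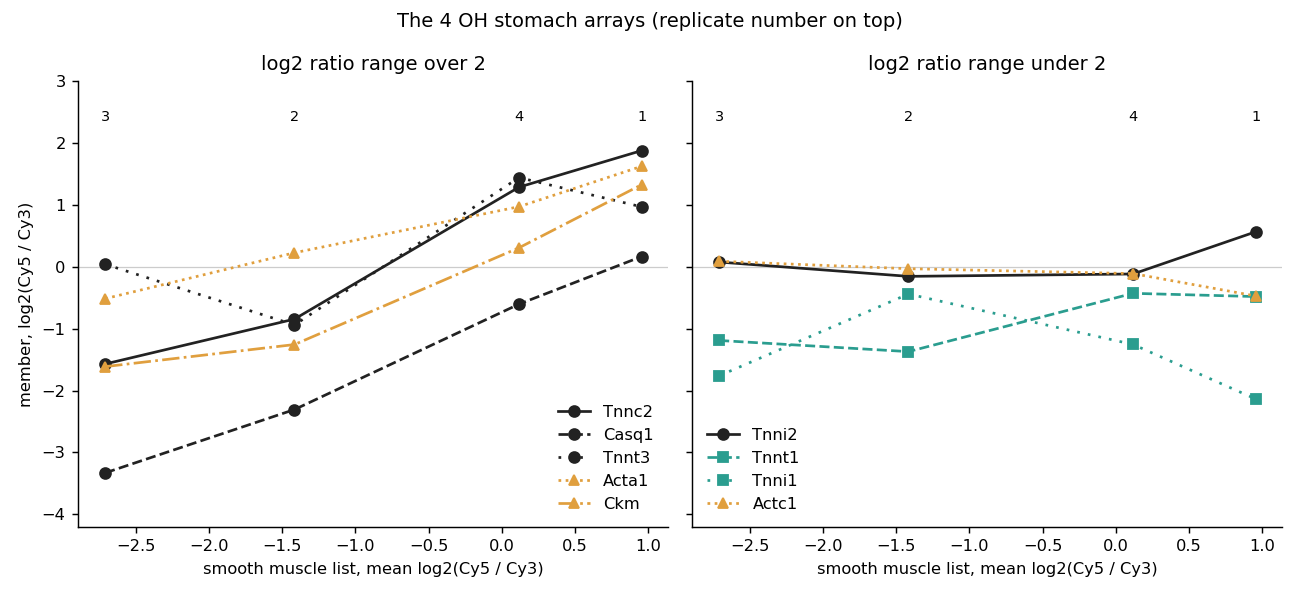
Log2 ratios of 9 of the genes on the 4 OH stomach arrays (vertical axis) against the mean log2 ratio of 8 smooth muscle genes on the same arrays (horizontal axis), lines joining the arrays of a gene. Tnnc2, Casq1, Acta1 and Ckm climb from replicate 3 to replicate 1 by 2.14 to 3.49, while Tnni2 and Actc1 stay within ranges of 0.72 and 0.56.

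The processed Cy5 signal was also read on its own, without the pool. From the second lowest C stomach array down to the highest OH stomach array, the gap in log2 Cy5 was 0.60 for Acta1, 0.99 for Tnnc2, 1.06 for Ckm and 1.07 for Casq1. The gap was 1.90 for Tnnt1, 2.85 for Actc1, 3.02 for Tnni1, 3.54 for Tnni2, 4.73 for Tnnt3 and 5.22 for Atp2a1. On its brightest OH stomach array Tnnc2 reached 13.10 in log2 Cy5, where C stomach had 14.84, 9.06, 14.09 and 15.50, whereas Tnni2, of the same troponin complex, reached 10.30, where C stomach had 14.63, 8.91, 13.84 and 15.16.

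Averaged by class, the means of fast, slow and common genes moved together in C stomach, and in OH stomach the slow mean ran apart from the others. The mean log2 ratio of the 5 fast genes was 3.57, -1.86, 3.18 and 3.85 in C stomach and 0.83, -1.32, -0.70 and 0.79 in OH stomach. It includes Tnnt3 and Atp2a1, which were not well above background on C stomach replicate 2, and Atp2a1 was not so on OH stomach replicate 2. That of the 2 slow genes was 2.32, -1.14, 2.26 and 3.14 in C stomach and -1.31, -0.91, -1.48 and -0.84 in OH stomach. The 3 common or cardiac genes had 3.03, -0.70, 2.50 and 3.28, and then 0.83, -0.35, -0.68 and 0.39. In OH stomach the fast and common means were higher on replicates 1 and 4 than on 2 and 3, whereas the slow mean did not leave the span from -1.48 to -0.84. The slow mean joins 2 unlike genes. Tnni1 was lowest on replicate 1 (-2.14), while Tnnt1 was higher on replicates 1 and 4 (-0.48 and -0.43) than on 2 and 3 (-1.37 and -1.19). The fast Tnni2 and the cardiac Actc1 had narrow ranges, 0.72 and 0.56, so the genes did not split by class.

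Fast minus slow, in log2 ratio, was 1.25, -0.72, 0.92 and 0.71 in C stomach, and 2.14, -0.42, 0.78 and 1.63 in OH stomach. On replicate 2 of both groups this value rests in part on fast genes at background. The groups overlapped, with means of 0.54 ± 0.87 and 1.03 ± 1.12 (SD, n = 4 each), and 0.96 in C without replicate 2. Within the troponin I pair, Tnni2 minus Tnni1 was 1.60, 0.62, 1.47 and 1.65 in C stomach and 2.70, 0.29, 1.84 and 1.14 in OH stomach. For the actins, Acta1 minus Actc1 was -0.19, -1.09, -0.37 and -0.24 in C stomach and 2.09, 0.26, -0.60 and 1.08 in OH stomach. The difference between the actins lay between -0.37 and -0.19 on the 3 C arrays with high muscle genes and between -0.60 and 2.09 in OH stomach.

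**Figure D3:**
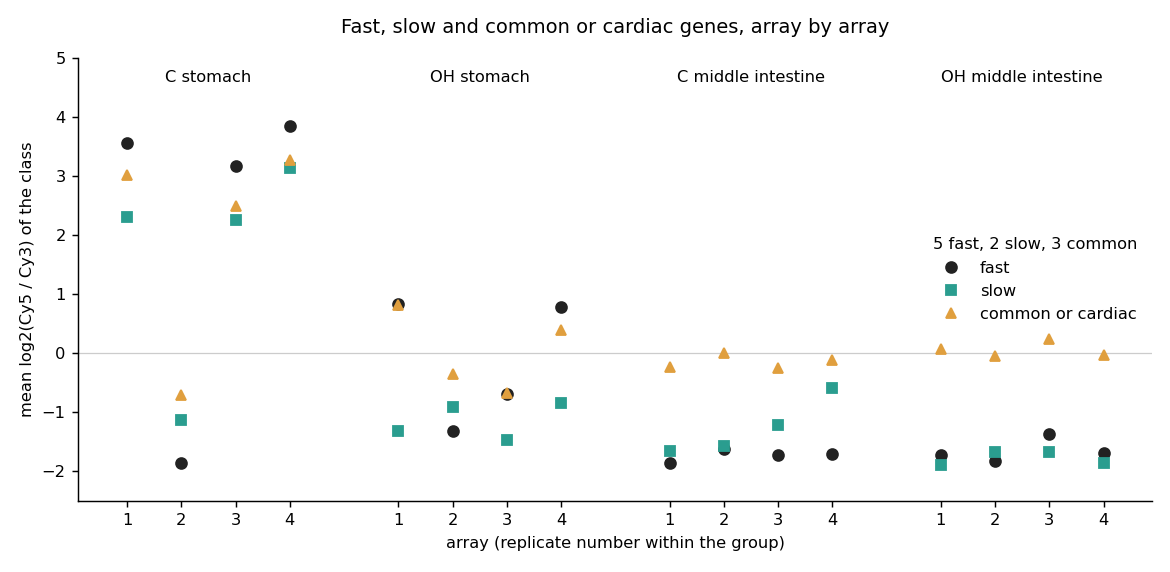
Mean log2 ratio of the 5 fast, 2 slow and 3 common or cardiac genes (vertical axis) on each of the 16 arrays (horizontal axis, by group and replicate). C stomach replicates 1, 3 and 4 have all class means between 2.26 and 3.85, and the slow mean of OH stomach lies at -1.48 to -0.84 on all 4 arrays. The fast mean includes Tnnt3 and Atp2a1, which were at background on C stomach replicate 2 and on most middle intestine arrays.

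The Cy3 channel, which held the same pool on every array, was not constant for these genes. On C stomach replicates 1 to 4, log2 Cy3 of Atp2a1 was 9.99, 3.28, 8.81 and 10.55, beside log2 Cy5 of 13.10, 1.92, 12.00 and 13.67, of which the second was not well above background. For Tnnt3 it was 8.66, 5.22, 7.78 and 9.15 beside 12.90, 2.56, 12.10 and 13.52. All 10 genes had their lowest Cy3 on replicate 2, and the range of log2 Cy3 over the 4 arrays was 0.50 (Actc1) to 7.27 (Atp2a1), against a median of 0.23 over all probes kept. Of 98 other probes whose log2 Cy5 was at least 3 higher on replicate 1 than on replicate 2, 88 also had higher Cy3. The median rise in Cy3 over the 98 was 3.28% of the rise in Cy5. These probes leave out only those of the members, so other striated muscle genes could be among them. The shares of all probes with higher Cy3 on replicate 1, or lowest on replicate 2, were not computed, and nothing is read from these counts. For Atp2a1 the rise in Cy3 was 10.72% to 11.51% of the rise in Cy5. For all 10 genes the log2 ratio thus spanned less than log2 Cy5 over these arrays, as for Tnni2, with a range of 4.92 in the ratio and 6.24 in Cy5.

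**Figure D4:**
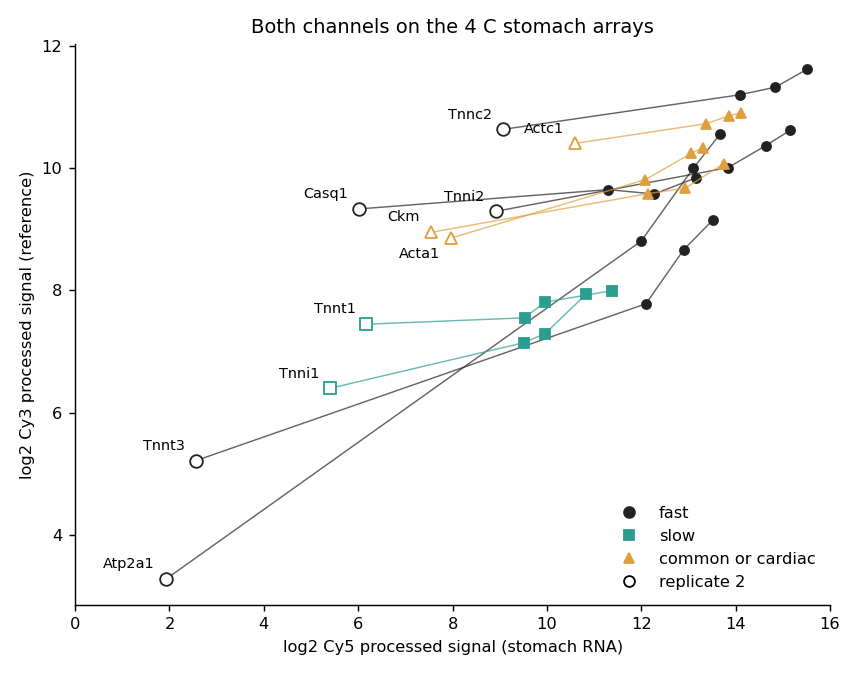
Log2 processed signal in Cy3 (reference pool, vertical axis) against Cy5 (stomach RNA, horizontal axis) of each gene on the 4 C stomach arrays, joined by a line, with replicate 2 open. Cy3 is lowest on replicate 2 for all 10 genes, and Atp2a1 spans 7.27 in Cy3.

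In middle intestine no difference between OH and C passed the test. The group means lay below the pool for all 10 genes but Ckm (0.39 in C and 0.44 in OH), Acta1 in OH (0.29) and Atp2a1 (0.18 and 0.022, mostly at background), and the SD over 4 arrays was 0.13 to 0.89, against 1.40 to 3.48 in C stomach. Ckm was higher here than its OH stomach mean of -0.31. None of the 9 genes tested passed in OH against C, where 0.368% of all probes did (limma over the arrays of all 4 groups, adjusted p of 0.718 or more). In this fit 0 of the 9 had an unadjusted p under 0.05. The count over all probes at that threshold is given with the processing settings below, and nothing is read from the 0 of 9. Of the 9, 5 had a higher and 4 a lower mean in OH, with a median difference of 0.03 on the log2 scale against 0.0011 over all probes. The fit took its error from all 4 groups, so the wide spread of these genes in stomach entered it, and the 95% intervals ran from -1.02 to 0.98 for Actc1, the narrowest, to -2.19 to 2.90 for Tnnt3, the widest. Tnnt3 passed the filter on dim probes through stomach and was at background on all 4 C arrays of middle intestine, so that its value there is no measured difference. Tnni1 also passed the filter through stomach alone, and in middle intestine it was well above background on 2 of the 4 arrays of each group. Tnnt3 is among the 5 higher and Tnni1 among the 4 lower, and nothing is read from these counts or the median.

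Tnni2 had log2 ratios of -2.12, -1.86, -1.79 and -1.84 in C middle intestine and -1.71, -2.11, -1.69 and -2.09 in OH, with a difference of -0.0018 (SE 0.76). Tnnc2 had -3.10, -2.73, -3.18 and -2.98 in C and -2.92, -3.13, -2.56 and -2.74 in OH. Casq1 had -2.06, -1.82, -2.18 and -2.20 in C and -1.97, -2.58, -1.50 and -2.09 in OH. The groups overlapped for all 3 fast genes. Tnnt3 was well above background on 2 of the 4 OH arrays and on none of C, and Atp2a1 on 1 C array and on none of OH. Ckm had -0.02, 0.72, 0.22 and 0.63 in C and 0.30, 0.02, 0.91 and 0.55 in OH. Actc1 had -0.72, -0.47, -0.36 and -0.61 in C and -0.46, -0.46, -0.61 and -0.72 in OH. The groups overlapped for both. Tnni1, with -3.07, -2.93, -1.83 and -1.22 in C and -2.22, -2.50, -2.23 and -2.57 in OH, was well above background on 2 arrays of each group.

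Tnnt1 and Acta1 were the members whose C and OH arrays did not overlap in middle intestine, 1 lower and 1 higher, where 2.13% of all probes were lower and 3.72% higher with no overlap. Tnnt1 had -0.25, -0.21, -0.62 and 0.03 in C and -1.55, -0.86, -1.11 and -1.15 in OH. The difference was -0.91 (SE 0.67, limma adjusted p = 0.718; exact permutation test, two-sided, p = 0.029, the smallest that 4 against 4 arrays allow). Its second probe overlapped, with -1.32, -2.23, -1.42 and -0.33 in C and -2.14, -1.11, -1.65 and -1.34 in OH (exact permutation p = 0.66), and so did the Cy5 signal of the first. Acta1 had 0.05, -0.24, -0.59 and -0.38 in C and 0.38, 0.29, 0.41 and 0.06 in OH, and its Cy5 overlapped as well. The difference was 0.58 (SE 0.67, limma adjusted p = 0.860, exact permutation test, two-sided, p = 0.029). Groups of 4 arrays that do not overlap always give this permutation p, so it adds nothing to the lack of overlap. For the other members, by their brighter probe, the exact permutation p was 0.31 or more. With only the 8 middle intestine arrays in the fit the SE of Tnnt1 was 0.19 and that of Acta1 0.16, and the adjusted p was 0.195 and 0.312. The unadjusted p of that limma fit was 0.0011 for Tnnt1 and 0.0064 for Acta1, and over 0.05 for the rest of the genes tested.

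**Figure D5:**
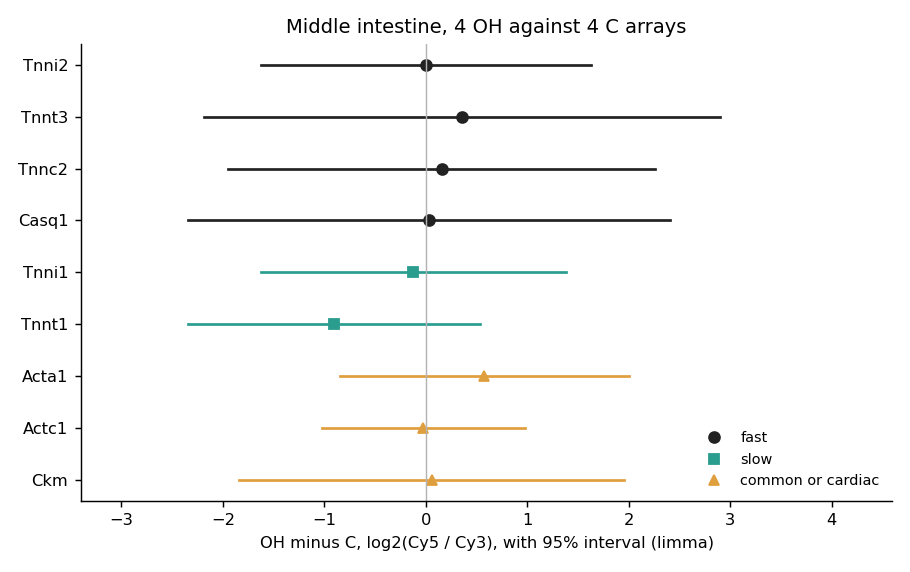
Difference in log2 ratio between OH and C middle intestine (horizontal axis, 4 arrays against 4) for the 9 genes tested, with the 95% interval of the limma fit over all 16 arrays. All intervals include 0, and Tnnt1 at -0.91 and Acta1 at 0.58 are farthest from it. Tnnt3 and Tnni1 passed the filter on dim probes through stomach alone.

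Between the tissues, which were on different slides, all 10 genes were higher on C stomach replicates 1, 3 and 4 than on any middle intestine array. The share of all probes for which this held was not computed. Genes and arrays were both picked with these values known, and nothing is read from the count. By another measure, limma calls in either direction at an adjusted p under 0.05, 44.9% of all probes differed between C stomach and C middle intestine. Between OH stomach and OH middle intestine 38.2% did. Tnnt3 was not well above background on any C middle intestine array and was so on 3 of the 4 C stomach arrays, and no fold is given. C stomach had a higher mean than C middle intestine by 4.97 for Tnni2, 5.18 for Tnnc2 and 3.15 for Casq1 on the log2 scale, and by 1.64 for Ckm and 1.82 for Tnnt1. Without C stomach replicate 2 the differences were 6.12, 6.43 and 4.62 for Tnni2, Tnnc2 and Casq1, and 2.78 for Ckm and 2.76 for Tnnt1. In OH the same differences were 2.00, 3.03 and 0.52 for Tnni2, Tnnc2 and Casq1, and that of Ckm was -0.75 (-0.31 in stomach against 0.44 in middle intestine).

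Other striated muscle genes were read from a list that was drawn up with stomach results known, so that it is no independent evidence. Of 77 such genes on the array, of 79 listed, 64 were lowest in C stomach on replicate 2, and 43 of them by over 2 on the log2 scale, beside the 25.2% and 0.879% of all probes given above. Their mean log2 ratio was 2.48, -0.50, 2.14 and 2.89 in C stomach, 0.35, -0.34, -0.40 and 0.32 in OH stomach, and -0.38 to -0.08 in middle intestine. Of the 47 that passed the filter, which a gene may pass through C stomach alone, 41 were lower and 6 higher in OH than in C stomach. The median difference was -1.69 against 0.01 over all probes. As the list was drawn up with these results known, no test is given for stomach and nothing is read from the counts. In middle intestine none of the 47 passed, where 0.368% of all probes did, and none had an unadjusted p under 0.05 (limma, smallest adjusted p = 0.534), with 16 higher and 31 lower. That fit took its error from the arrays of both tissues, so the spread of these genes in stomach entered it. Nothing is read from these counts either.

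By class, the 10 other fast-fibre genes had a mean of 3.78, -0.45, 3.44 and 3.86 in C stomach, and the 7 other slow-fibre genes 1.77, -1.15, 1.65 and 2.36. Actn3, which crosslinks actin in fast fibres, had 4.85, -1.23, 4.32 and 4.96 in C stomach and 0.08, -1.02, -1.30 and 0.32 in OH stomach. Myoz1, a Z-disc protein of fast fibres, had 5.11, -0.24, 4.57 and 5.31, and then 0.88, -0.14, 0.04 and 0.97. For both, replicates 1, 3 and 4 of C stomach exceeded every OH array. Among slow genes, Mybpc1 (slow myosin-binding protein C) had 3.40, -0.76, 3.11 and 3.79 in C stomach and -0.67, -0.27, -0.79 and 0.04 in OH stomach. Myl3, the light chain of slow fibres and ventricle, had 4.54, -0.60, 4.64 and 4.67, and then 1.04, -1.10, 1.41 and 2.92. These 4 were picked for the size of their difference in stomach. The highest OH stomach array was below the second lowest C stomach array in 8 of the 10 other fast-fibre genes and 5 of the 7 slow-fibre genes, and in 11% of all probes. The exceptions, named here after their values were seen, were Mybpc2, Pvalb, Myh7 and Casq2. Pvalb, the calcium buffer of fast fibres, had -0.52, -1.63, -1.01 and -0.96 in C stomach and 1.03, -1.13, -1.51 and -1.38 in OH stomach. Myh7, the slow myosin heavy chain, had -1.66, -0.82, -1.31 and -0.53, and then -1.23, -0.92, -1.73 and -2.30.

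The developmental myosins Myh3 (embryonic) and Myh8 (perinatal) were high on replicates 1, 3 and 4 of C stomach. Myh3 had 4.30, -1.13, 3.97 and 5.09 in C stomach and -0.40, -1.41, -0.04 and 1.09 in OH stomach, and Myh8 had 3.95, -0.47, 3.97 and 4.01, and then 1.02, 1.04, 0.80 and 1.83. Myod1 and Myf6, the factors that set the muscle programme, had 6.16, 0.41, 4.73 and 6.66 and 6.03, 0.37, 4.82 and 6.64 in C stomach. Both were well above background on replicates 1, 3 and 4 of C stomach and on no other of the 16 arrays. Chrng, the acetylcholine receptor subunit of immature end plates, had 2.59, -0.06, 1.98 and 4.54 in C stomach and was well above background on the same 3 arrays only. Chrne, its counterpart at mature end plates, had 0.87, -1.59, 0.58 and 1.67. These genes too were picked for the size of their difference in stomach. The highest OH stomach array was below the second lowest C stomach array in 4 of 7 myogenic factors and 2 of 6 genes of the nerve-muscle junction, and in 11% of all probes. It was not so for Myf5, Pax7 and Mef2c, nor for Chrna1, Chrnb1, Chrnd and Musk.

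In the remaining classes Ckmt2, the mitochondrial creatine kinase, had 5.12, -1.64, 4.54 and 5.22 in C stomach and -0.94, -2.14, -1.47 and -1.52 in OH stomach. Cox8b, a muscle subunit of cytochrome oxidase, had 6.49, 0.20, 5.88 and 6.95, and then -0.09, -0.26, 0.74 and 1.06. These were the energy genes with the largest differences between OH and C stomach. Neb (nebulin, along the thin filament) had 5.43, -0.60, 6.31 and 6.09 and Ldb3 (a Z-disc protein) 4.02, -1.56, 3.46 and 4.13 in C stomach. Cacna1s, the voltage sensor for calcium release, had 3.40, -1.52, 3.08 and 4.18, and Cacng1, a subunit of the same channel, 4.25, 0.69, 2.98 and 3.83. The heart list stood apart from all of these, with a mean over its 9 genes of -0.94 to -0.36 in C stomach and 4 or 5 genes above background on any array. Within it Myl4, an atrial light chain that embryonic skeletal muscle also makes, had 4.48, -0.30, 4.13 and 4.69, and Myl7, of the atrium, was not well above background on any array. The highest OH stomach array was below the second lowest C stomach array in 8 of 9 energy genes and 10 of 15 sarcomere scaffold genes. It was so in 6 of 12 genes of excitation and calcium release and 2 of 9 heart genes, and in 11% of all probes. Jph1, Jph2, Jsrp1, Pln, Scn4a and Clcn1 were the exceptions in the excitation class.

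The genes whose log2 ratio ran most like the mean of the 10 members over the 16 arrays were Myh3 (Pearson r = 0.98), Myoz1 (0.97), Eno3 (0.97), Myl4 (0.97), Ampd1 (0.96), Myh1 (0.95), Smtnl2 (0.95), Mybpc1 (0.95), Pgam2 (0.95) and Mylpf (0.94). The arrays share a pool and fall into 2 tissues, so these values describe likeness and are not tested. Smtnl2 was the only one of the 10 outside the muscle lists, and its range over the arrays was 1.91 on the log2 scale, where that of Myh3 was 7.08.

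Markers of other tissues on the arrays with high muscle genes were as follows. Squamous epithelium genes had a mean of 1.39, 2.40 and 1.78 on C stomach replicates 1, 3 and 4, 0.40 on replicate 2 and 0.18, 1.28, 0.45 and 0.75 in OH stomach. The adipocyte list of 5 genes, of which 3 or 4 were above background, had 1.49, 0.71, 1.40 and 1.45 in C stomach and 0.96, -0.85, 0.87 and 1.19 in OH stomach. The hepatocyte list lay between -5.08 and -4.45 on all arrays. All 6 lists of other tissues were lowest in C stomach on replicate 2, as the muscle genes were. The gap to the next lowest array was 1.00 for squamous epithelium, 0.70 for adipocyte, 0.44 for smooth muscle, 0.22 for enterocyte, 0.21 for hepatocyte and 0.041 for oxyntic genes, against 2.64 for the 77 other striated muscle genes. Their part in the muscle values was not tested.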

How the data were processed

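RNA of stomach and middle intestine of C and OH rats was hybridised to 16 two-colour arrays, 4 per group, tissue in Cy5 and a common pool in Cy3, with no dye swap. The deposited intensity values, per the file headers, are Feature Extraction processed signals after background subtraction and Lowess dye normalization (version 10.10.1.1 in the headers, 10.7.3.1 in the submitters' processing notes), which centres the ratios of each array, so that a shift shared by most genes would not be seen. The deposited log10 ratio table of the authors served as an alternative. Median raw Cy5 was 163 to 328, and median raw Cy3 188 to 195 on C and 341 to 399 on OH arrays; the number of arrays limits the precision.

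Outlier spots were left out, spots of a probe averaged and log2(Cy5/Cy3) fitted with limma 3.58.1 (R 4.3.3), 1 mean per group, with Benjamini-Hochberg adjustment over the 21174 probes kept; a probe was kept if 1 group or more had it well above background in Cy5 on its 4 arrays, with 3 values or more in every group. Single values were tested by exact permutation. The fit was tested on simulated data. The methods' one-way ANOVA was an alternative. The genes, the lists and the tests were chosen with earlier results of these data known, and members were tested in middle intestine alone. Named beyond the 10 members were, per class of other muscle genes, the 2 with the largest difference between OH and C stomach, and the 10 most like the members. The other lists were smooth muscle, squamous epithelium, stomach mucosa, enterocyte, adipocyte and hepatocyte genes.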

Additional observations from a re-analysis of the deposited data

Results flagged for a closer look

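Among 68 sets of 4 arrays (each of the 10 genes, the class means and their differences in each group), 9 had 1 array farther from the rest than Dixon's 95% limit for the gap over the range. Chance gives about 5% of independent sets, but these sets share genes and the genes were chosen on the stomach values, so the count is a description and no test. In C stomach, replicate 2 was the low array in 7 of them, at 0.857 for Tnni2, 0.981 for Tnnt3 and 0.981 for Atp2a1 (both at background there), 0.865 for Tnni1, 0.882 for the fast mean, 0.921 for fast minus common and 0.848 for the mean of all members. In OH middle intestine, the lowest array of Atp2a1 stood apart at 0.899, where the gene was not well above background on any array, and the highest array of the mean of all members at 0.842.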

How the results depend on the processing

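None of the 9 genes tested in middle intestine passed under any of the 28 other settings that gave them a value (252 values, smallest limma adjusted p = 0.195, for Tnnt1 with the arrays of the 2 groups alone). Tnnt1 stayed lower and Acta1 and Tnnc2 higher in OH under all of them, and the values of Tnnt3 rest on arrays at background. Settings that changed only the filter, the error model, the block or the stomach arrays could not alter these differences. Neither the constant signs nor the share of signs that turned therefore measures stability. The sign turned in 21 of the 252 values: with normexp and loess for Casq1 (-0.049), with Cy5 alone for Ckm (-0.041), and with scale normalization for Tnni2 (0.37), Tnni1 (0.16), Actc1 (0.087) and Ckm (-0.027), while leaving out 1 array gave ranges of -0.073 to 0.068 for Tnni2, -0.15 to 0.21 for Casq1, -0.39 to 0.22 for Tnni1, -0.085 to 0.037 for Actc1 and -0.097 to 0.20 for Ckm.

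Fast minus slow in OH middle intestine moved to -0.35 with normexp and loess. With Cy5 alone it was 0.80 there, 2.43 in C stomach and 0.25 in C middle intestine. That setting subtracts the brightness of different probes with no pool, so these 3 values are not the same quantity as the ratios. The common class differed between OH and C middle intestine by -0.042 with Cy5 alone, and the fast class by 0.42 with scale normalization. Leaving out 1 array moved the class differences between OH and C stomach to -3.63 to -1.73 (fast), -3.71 to -2.28 (slow) and -2.89 to -1.56 (common), each at its lowest without C stomach replicate 2.

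Over all probes the calls in stomach, 0 as fitted, were 37 with Cy5 alone, 3 with median centring, 2 from the log10 table, 639 with no filter on dim probes, 707 by ANOVA and Tukey's HSD and 2247 at an unadjusted p. In middle intestine, 78 as fitted (71 higher, 7 lower), they were 662 with Cy5 alone (18 higher, 644 lower), 269 with scale normalization (184 higher, 85 lower), 1378 with no filter, 1 with the 8 arrays alone, 936 by ANOVA and 2213 at an unadjusted p. The replicate number as a block gave 40; same-numbered OH and C arrays did not deviate together (correlations from -0.40 to 0.51 in middle intestine and -0.36 to 0.30 in stomach). Between stomach and middle intestine, where a number may stand for 1 rat, which was not given, the correlations were 0.058 to 0.25 in C and -0.12 to 0.32 in OH, and 6 and 4 of 8 arrays were closest to their own number. Not every pair was over 0.1 in any comparison, so the arrays were not treated as paired, and the block left 9459 calls between the tissues in C and 8037 in OH (9517 and 8090 as fitted). Leaving out 1 array gave 0 to 311 in stomach, the highest without C stomach replicate 2, and 12 to 88 in middle intestine; the cause was not tested. The scaling settings moved the median of all probes by under 0.1 on the log2 scale, and the 9 genes stayed lower in OH stomach under each of them. As the genes were chosen on their stomach values, nothing is read from the latter.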
